A study of Mus musculus with 12 samples.

Results

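Transforming growth factor beta (TGF-beta), activins and bone morphogenetic proteins (BMPs) are secreted ligands of 1 family. They bind pairs of type I and type II serine/threonine kinase receptors, which phosphorylate receptor-regulated Smad proteins that enter the nucleus with Smad4. Secreted antagonists trap the ligands, latent TGF-beta binding proteins (LTBPs) store them in the matrix, and inhibitory Smads close a feedback loop. In fibroblasts the TGF-beta branch is known for driving matrix production, and the Id genes are textbook targets of the BMP branch. The report follows 43 genes of this system among the 24453 genes of the expression table. They were chosen by name, with earlier results of these data known. The 43 are 12 ligands, 10 receptors, 8 Smads, 4 Id genes, 3 antagonists and 6 genes of latency and matrix.

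RNA was sequenced from 4 lines of immortalized mouse embryonic fibroblasts (MEFs), 3 libraries each, to learn how gene expression changes when the RNase PNPase is lost. TM6 is the parental line, labelled C57BL6/J and Pnpt1 neo-flox/neo-flox, and carries SV40 large T antigen. The rho0 line came from TM6 after 3 weeks in 750 ng/mL ditercalinium, a DNA-binding drug that removes mitochondrial DNA, and 1 cell of it was expanded. The PKO-1 and PKO-6 lines grew from single TM6 cells after adenoviral Cre deleted the loxP-flanked part of Pnpt1, which encodes PNPase. The study detected no mitochondrial DNA in these clones by quantitative PCR, as in rho0. The floxed alleles, SV40 large T and uridine at 50 µg/mL were common to every line, and no library came from cells with unmodified Pnpt1. Each derived line is 1 clone, so every test compares lines and cannot separate a treatment from the isolation of a clone. P-values measure the spread between cultures of a line. In bulk RNA, fewer cells with a transcript and less of it per cell cannot be told apart.

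Values are expected counts divided by library scaling factors ("normalized counts"). A gene was called when the edgeR quasi-likelihood test gave an adjusted p under 0.01 and the log2 fold change exceeded 0.5 in either direction. Folds are given on the log2 scale with their standard error (SE), and other ± values are SD with n = 3. Of the 43 genes, 40 passed the filter on low counts. Bmp7, Gdf6 and Inhbb did not: Bmp7 and Gdf6 had at most 3.10 normalized counts in any library, and Inhbb, an activin subunit gene, had 7.78, 8.60 and 14.0 in TM6, 3.87, 4.43 and 4.47 in rho0, 4.76, 2.13 and 1.03 in PKO-1 and 4.09, 4.15 and 6.79 in PKO-6.

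Library totals ran from 47164832 to 67991336 counts, of which Rn45s, a ribosomal precursor, took 12.2% to 19.6%. Pnpt1 held 2832, 3242 and 3319 normalized counts in TM6, 5051, 5251 and 5510 in rho0, 1254, 1191 and 1276 in PKO-1, and 1897, 1720 and 2214 in PKO-6. Both knockout clones lay below every TM6 library, and their remaining counts include the exons that Cre left in place. In both rho0 and PKO-6, 1 library stood apart. The chi-square per degree of freedom was 60.1 and 79.5 between rho0 replicate 1 and its fellows against 4.38 for the other pair, and 75.8 and 127 for PKO-6 replicate 3 against 23.3. Rn45s was among the genes in this statistic. It took 19.6% of rho0 replicate 1 against 15.8% in both fellows, and 12.2% of PKO-6 replicate 3 against 17.8% and 19.2%. With either of these 2 libraries left out alone, 24 members were called in rho0 and 26, with Bmpr1a added, in PKO-6 against TM6.

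Of 10 fibroblast markers, 9 averaged over 3 normalized counts in every line and Thy1 at most 2.81. Their sum was 568265 to 619817 in TM6, 464673 to 518710 in rho0, 621146 to 670808 in PKO-1 and 360777 to 402491 in PKO-6, and single markers moved more, such as Col3a1 with means of 4765, 476, 7011 and 329 in the same order. The 6 epithelial markers summed to 260.3 to 276, 409 to 471, 817 to 842 and 111 to 140.0, mostly Krt18 except in PKO-6, where Epcam averaged 88.0, while Krt5 was at 0 in all libraries. The 5 haematopoietic markers reached at most 212, mostly Cd68, with Adgre1 at 0, the 5 endothelial markers at most 177, mostly Kdr, and the 5 skeletal muscle markers at most 95.2, with Myog at 0. The 4 chondrocyte markers, almost all Sox9, summed to 1378 to 1421 in TM6 and 181 to 779 in the other lines, and the 4 adipocyte markers to 266 to 659, mostly Pparg. Their part in the results was not tested.

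Most of the members called in each derived line were lower than in TM6. In rho0, 6 members rose and 18 fell, so 24 of 40 were called, against 42.1% of the 14026 genes tested (20.7% higher and 21.4% lower). In PKO-1, 8 rose and 18 fell against a background of 34.3% called, 16.4% higher and 17.9% lower. In PKO-6, 7 rose and 18 fell against 41.3% called, 21.9% higher and 19.4% lower. The median log2 fold change over the 40 was -0.40 in rho0, -0.25 in PKO-1 and -0.30 in PKO-6, while the median over all tested genes was 0.018, 0.00086 and 0.014. These 3 comparisons share the TM6 libraries and are therefore not independent. Bmp2, Gdf5 and Nog passed the filter on low counts only through TM6, so they could only be called lower. They are among the falls, and in the medians, of each derived line.

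**Figure D1:**
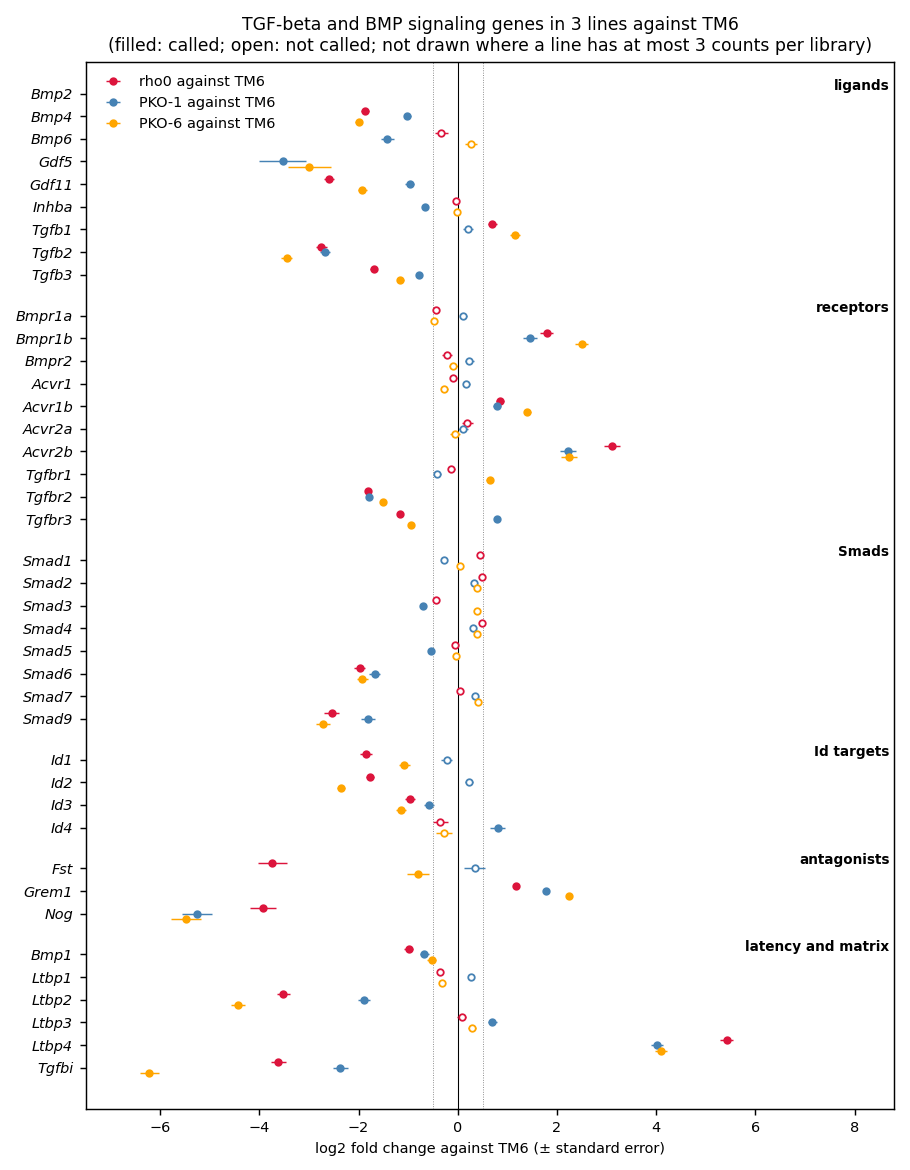
Log2 fold change against TM6 (horizontal axis, ± SE) of the 40 tested genes in rho0, PKO-1 and PKO-6, grouped by role. Filled points were called, open points were not, and dotted lines mark a log2 fold change of 0.5 in either direction. No point is drawn where a line had at most 3 counts in every library, as for Bmp2 in all 3 lines and Gdf5 in rho0. Of the points drawn, Ltbp4 stands farthest right in all 3 lines and Tgfbi in PKO-6 farthest left.

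The 5′ sequences of 4 genes are shown here because the results below turn on where Ltbp1 and Ltbp4 transcripts start and on the Id genes. Each run holds the 250 bases before a RefSeq start of the GRCm38.p6 build, written 5′ to 3′ on the gene's strand. RefSeq promoters were found for 30 of the 43 genes, 38 promoters in all. Capitals mark GGCGCC, a GC-rich motif bound by BMP-activated Smads, and CAGAC or its reverse complement GTCTG, which hold the core of the Smad box.

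Ltbp4 start of the shorter form, chr7:27333649-27333898, minus strand: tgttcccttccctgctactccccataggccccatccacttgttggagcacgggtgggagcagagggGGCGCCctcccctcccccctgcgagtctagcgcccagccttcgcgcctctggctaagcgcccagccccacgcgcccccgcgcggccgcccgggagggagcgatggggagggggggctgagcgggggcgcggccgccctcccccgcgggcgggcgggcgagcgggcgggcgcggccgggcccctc
Ltbp4 start of the longer form, chr7:27337613-27337862, minus strand: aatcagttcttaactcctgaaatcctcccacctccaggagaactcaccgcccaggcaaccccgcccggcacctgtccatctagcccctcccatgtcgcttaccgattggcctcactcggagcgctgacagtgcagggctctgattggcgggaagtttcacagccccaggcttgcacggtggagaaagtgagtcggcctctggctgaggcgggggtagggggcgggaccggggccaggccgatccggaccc
Ltbp1 start of the longer form, chr17:75005279-75005528, plus strand: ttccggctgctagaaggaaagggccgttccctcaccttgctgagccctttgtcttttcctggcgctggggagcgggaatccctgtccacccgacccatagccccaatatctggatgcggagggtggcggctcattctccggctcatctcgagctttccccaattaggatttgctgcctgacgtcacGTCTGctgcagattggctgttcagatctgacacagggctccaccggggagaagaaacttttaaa
Ltbp1 start of the shorter form, chr17:75178531-75178780, plus strand: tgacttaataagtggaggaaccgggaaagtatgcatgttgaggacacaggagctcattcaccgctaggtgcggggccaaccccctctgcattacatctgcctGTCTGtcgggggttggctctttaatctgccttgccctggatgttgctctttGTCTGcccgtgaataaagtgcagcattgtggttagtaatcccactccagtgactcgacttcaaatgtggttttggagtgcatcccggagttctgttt
Id2, chr12:25096093-25096342, minus strand: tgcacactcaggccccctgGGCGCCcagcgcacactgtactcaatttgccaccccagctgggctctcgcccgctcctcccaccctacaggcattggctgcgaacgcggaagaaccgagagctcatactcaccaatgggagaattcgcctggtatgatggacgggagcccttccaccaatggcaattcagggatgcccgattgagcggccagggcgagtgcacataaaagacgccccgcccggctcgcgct
Id3, chr4:136143572-136143821, plus strand: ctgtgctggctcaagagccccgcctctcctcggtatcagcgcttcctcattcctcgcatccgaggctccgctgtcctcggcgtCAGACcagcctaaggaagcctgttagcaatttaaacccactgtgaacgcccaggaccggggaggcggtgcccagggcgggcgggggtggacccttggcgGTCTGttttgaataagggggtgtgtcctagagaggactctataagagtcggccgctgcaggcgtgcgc

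Among the members' 38 promoters, 11 held GGCGCC (28.9%), as did 9.59% of all 32851 promoters of the same length, and several of the 38 belong to the same gene and overlap. CAGAC on either strand stood in 16 of 38 (42.1%) and in 42.2% of all promoters. The palindrome GTCTAGAC, which contains the 4-base Smad box on both strands, was in none of the 38 and in 0.167% of all. Both strands were searched. GGCGCC and GTCTAGAC read the same on both, and GTCTAGAC contains neither CAGAC nor GTCTG. A match is a run of letters and not evidence of binding.

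The 4 best-counted ligand genes called in all 3 comparisons, Bmp4, Tgfb2, Tgfb3 and Gdf11, had clear expression in TM6 and were lower in every derived line. Bmp4, a ligand of the BMP branch, held 2584, 2630.1 and 2583 in TM6, 749.7, 637 and 738 in rho0, 1293, 1238 and 1314 in PKO-1 and 623, 717 and 608 in PKO-6 normalized counts. No derived library came near TM6, and the log2 fold change was -1.87 ± 0.07 in rho0, -1.02 ± 0.07 in PKO-1 and -2.00 ± 0.07 in PKO-6 (edgeR adjusted p = 6.94e-11, 2.85e-08 and 2.61e-11). PKO-1 kept more Bmp4 than PKO-6, by 0.98 ± 0.07 on the log2 scale.

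Tgfb2, the second of the 3 TGF-beta isoform genes, showed the widest fall among the well-counted ligands, with 773, 875 and 835 in TM6, 132, 132 and 104 in rho0, 131, 131 and 126 in PKO-1 and 75.3, 82.9 and 68.8 in PKO-6 normalized counts. Its log2 fold change was -2.75 ± 0.11 in rho0, -2.68 ± 0.11 in PKO-1 and -3.45 ± 0.11 in PKO-6. Libraries of rho0 and PKO-1 overlapped, and their difference of 0.08 had a 95% interval of -0.19 to 0.34. Tgfb3, the third isoform, held 2802, 2703 and 2637 in TM6, 869.8, 798 and 844 in rho0, 1631, 1535 and 1569 in PKO-1 and 1169, 1352 and 1122 in PKO-6 normalized counts. All 9 derived libraries were lower than TM6, at -1.70 ± 0.07, -0.78 ± 0.07 and -1.16 ± 0.07 in rho0, PKO-1 and PKO-6. Gdf11, an activin-like ligand gene, held 602, 561 and 535 in TM6, 102, 90.9 and 86.0 in rho0, 294, 267 and 305 in PKO-1 and 144, 145 and 158 in PKO-6. The 4 lines did not overlap with one another for Gdf11, and rho0 was lowest with a log2 fold change of -2.60 ± 0.10, against -0.97 ± 0.09 in PKO-1 and -1.92 ± 0.10 in PKO-6.

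Tgfb1, the isoform most often linked to fibrosis, went the other way. Its normalized counts were 693, 643 and 615 in TM6, 1171, 982 and 1013 in rho0, 724, 719 and 812 in PKO-1 and 1461, 1604 and 1282 in PKO-6. It rose in rho0 by 0.70 ± 0.09 and in PKO-6 by 1.15 ± 0.09 on the log2 scale. In PKO-1 the difference of 0.21 was not called (95% interval -0.01 to 0.43). Per length, in the TPM (transcripts scaled by length and library) that the authors deposited, Tgfb3 was the most abundant of the 3 isoforms in TM6 at 25.7 ± 0.85, ahead of Tgfb1 at 9.89 ± 0.61 and Tgfb2 at 5.52 ± 0.31. In rho0 and PKO-6 Tgfb1 led, at 15.8 ± 0.31 and 21.1 ± 1.05 TPM, and in PKO-1 Tgfb3 still did, at 14.3 ± 0.76 against 10.9 ± 1.18.

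The remaining ligands were low or differed in 1 clone. Bmp2 held 25.1, 35.3 and 31.9 normalized counts in TM6, 0 in the 3 PKO-1 libraries, and at most 1 count in any library of rho0 or PKO-6. Against a floor of 3 counts per library, Bmp2 was at least 9.36-fold lower in PKO-1. Gdf5, a ligand of joint formation, held 44.1, 43.9 and 41.9 in TM6 and no count in rho0, so it was at least 13.6-fold lower there. It also fell in PKO-1, to 1.19, 2.13 and 7.24 normalized counts (log2 fold change -3.53 ± 0.48), and in PKO-6, to 2.46, 9.33 and 4.85 (-2.99 ± 0.44). Bmp6 was called lower in PKO-1 alone, where it held 73.8, 71.4 and 73.4 against 186, 198 and 203 in TM6 (log2 fold change -1.42 ± 0.13). Its values against TM6 were -0.33 ± 0.12 in rho0 and 0.26 ± 0.12 in PKO-6, and PKO-1 differed from PKO-6 by -1.69 ± 0.13 (edgeR adjusted p = 1.13e-07). Inhba, which encodes the activin A subunit, held 1169, 1220.0 and 1256 in TM6, 1109, 1180.1 and 1281 in rho0, 750.0, 741 and 808 in PKO-1 and 1205, 1192 and 1203 in PKO-6, and PKO-1 alone was called, at -0.66 ± 0.06. Bmp6 and Inhba lie on chromosome 13, whose 558 tested genes had a median of -0.27 in PKO-1. With the chromosome medians removed, Inhba in PKO-1 fell short of the fold threshold at -0.35.

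**Figure D2:**
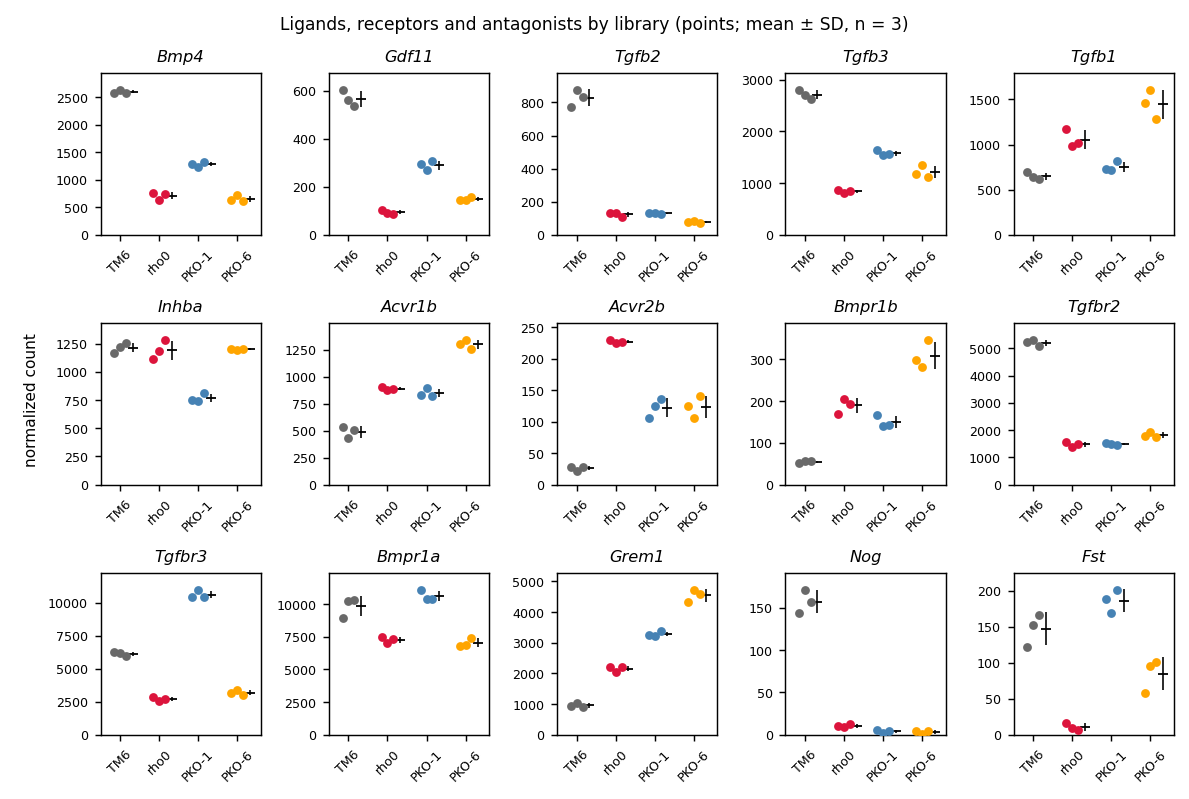
Normalized counts (vertical axes, linear from 0) of 15 ligand, receptor and antagonist genes in each of the 3 libraries of TM6, rho0, PKO-1 and PKO-6, with the mean and SD beside the points. Bmp4, Gdf11, Tgfb2 and Tgfb3 are highest in TM6, Acvr1b, Acvr2b, Bmpr1b and Grem1 are lowest there, and Tgfbr3 is highest in PKO-1 at 10458 to 10971.

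Among the receptors, 3 rose and 1 fell in all 3 derived lines. How many of all tested genes were called the same way in all 3 was not counted. Of the 10 receptors, 50%, 50% and 60% were called in rho0, PKO-1 and PKO-6, against 42.1%, 34.3% and 41.3% of all tested genes. Acvr2b, a type II activin receptor, was scarce in TM6, with 28.5, 22.0 and 27.9 in TM6, 229.6, 225 and 227 in rho0, 106, 126 and 135 in PKO-1 and 125, 106 and 141 in PKO-6 normalized counts. Its log2 fold change was 3.11 ± 0.16 in rho0, 2.22 ± 0.16 in PKO-1 and 2.24 ± 0.16 in PKO-6, and rho0 stood above both clones. With the chromosome medians removed, PKO-1 was no longer called against rho0 for Acvr2b (-0.49, edgeR adjusted p = 0.00666). Acvr1b, the type I receptor for activin, held 537, 429.9 and 506 in TM6, 907, 879 and 884 in rho0, 832, 894 and 823 in PKO-1 and 1306, 1339 and 1255 in PKO-6. It rose by 0.86 ± 0.08, 0.79 ± 0.08 and 1.40 ± 0.08, and every PKO-6 library was above those of all other lines. With the chromosome medians removed, PKO-6 was no longer called against rho0 (0.21, edgeR adjusted p = 0.0207) or PKO-1 (PKO-1 lower at -0.47). Bmpr1b, a type I BMP receptor, went from 51.9, 56.4 and 55.8 in TM6 to 169.5, 206 and 193 in rho0, 167, 141 and 143 in PKO-1 and 298, 283 and 346 in PKO-6. The log2 fold changes of Bmpr1b were 1.79 ± 0.13, 1.45 ± 0.13 and 2.50 ± 0.13 (edgeR adjusted p = 3.61e-08, 4.63e-07 and 8.34e-10). Per length, Acvr2b and Bmpr1b stayed low, with means of at most 0.65 and 1.81 TPM in any line. Acvr1b averaged 4.81 TPM in TM6 and 12.2 in PKO-6, where Tgfbr1 averaged 11.8 and Tgfbr2 11.7.

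Tgfbr2, the type II receptor that binds TGF-beta, was the only receptor lower in all 3 lines. It held 5219.8, 5306 and 5088 in TM6, 1575, 1388 and 1501 in rho0, 1540.4, 1495 and 1472 in PKO-1 and 1779, 1939 and 1750.1 in PKO-6 normalized counts, with no overlap with TM6. Its log2 fold change was -1.81 ± 0.06 in rho0, -1.79 ± 0.06 in PKO-1 and -1.51 ± 0.06 in PKO-6. Libraries of rho0 and PKO-1 overlapped, with a difference of 0.01 (95% interval -0.12 to 0.15). Tgfbr1, its type I partner, held 1279.7, 1505 and 1541 in TM6, 1251, 1364 and 1331 in rho0, 1127, 1120.4 and 1005 in PKO-1 and 2235, 2181 and 2322 in PKO-6 and was called in PKO-6 alone, at 0.64 ± 0.07. The difference of -1.05 ± 0.07 between PKO-1 and PKO-6 was called as well.

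Tgfbr3, or betaglycan, presents TGF-beta 2 to the signaling receptors. It held 6244, 6229 and 5981 in TM6, 2881, 2559.6 and 2731 in rho0, 10458, 10971 and 10479.7 in PKO-1 and 3148, 3388 and 3033 in PKO-6 normalized counts, and every PKO-1 library was above every TM6 library while all rho0 and PKO-6 libraries were below. The log2 fold change was -1.17 ± 0.06 in rho0, 0.79 ± 0.06 in PKO-1 and -0.95 ± 0.06 in PKO-6 (edgeR adjusted p = 5.11e-10, 3.15e-08 and 3.42e-09). With both clones in 1 group the difference was 0.17 ± 0.44 and was not called.

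The other 4 receptors, Bmpr1a, Bmpr2, Acvr1 and Acvr2a, were not called against TM6 in any line. Their log2 fold changes spanned -0.48, for Bmpr1a in PKO-6, to 0.23, for Bmpr2 in PKO-1. Bmpr1a, the widely expressed type I BMP receptor, was the most abundant receptor per length in TM6, at 56.1 ± 4.15 TPM. It held 8932, 10245 and 10287 in TM6, 7496, 7033 and 7304 in rho0, 11062, 10406 and 10387 in PKO-1 and 6821, 6875 and 7428 in PKO-6 normalized counts and was 0.59 ± 0.06 higher in PKO-1 than in PKO-6, a call lost with the chromosome medians removed (0.46).

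The Smad genes fell into 2 groups. Smad6 and Smad9 were lower in each derived line, and the other 6 had log2 fold changes between -0.70 and 0.49. Smad6 encodes an inhibitory Smad that the BMP branch induces, and held 1763, 1663 and 1600.4 in TM6, 439.8, 419 and 419 in rho0, 495, 481 and 599.8 in PKO-1 and 447, 509 and 365 in PKO-6 normalized counts. The log2 fold change was -1.98 ± 0.11, -1.67 ± 0.11 and -1.93 ± 0.11 in rho0, PKO-1 and PKO-6. Smad9, which encodes the BMP-branch Smad8, held 646, 707 and 732 in TM6, 134, 129 and 94.9 in rho0, 185, 166 and 239.9 in PKO-1 and 97.4, 107 and 112 in PKO-6. Its log2 fold changes were -2.54 ± 0.15, -1.82 ± 0.14 and -2.72 ± 0.15, and PKO-1 kept more than PKO-6 (difference 0.90 ± 0.15). Every derived library was below every TM6 library for both genes.

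Smad1, another BMP-branch Smad, held 1718, 1754 and 1666 in TM6, 2409.9, 2260.4 and 2287 in rho0, 1456, 1317 and 1476 in PKO-1 and 1792, 1818 and 1666 in PKO-6, and none of its differences from TM6 was called. With the chromosome medians removed, Smad1 was called higher in rho0, at 0.63 (edgeR adjusted p = 1.31e-07). Smad5, of the same branch, held 6201, 6322 and 6508 in TM6, 6083, 6195 and 6097 in rho0, 4370.0, 4305 and 4339.6 in PKO-1 and 6302, 6199.6 and 6035 in PKO-6 and was lower in PKO-1 alone, at -0.55 ± 0.04. Smad3, a TGF-beta-branch Smad, held 3895, 3777 and 3856 in TM6, 2973, 2671 and 2844 in rho0, 2343, 2288 and 2458 in PKO-1 and 5021, 5253 and 4837 in PKO-6. It was called lower in PKO-1 at -0.70 ± 0.05, was 0.39 in PKO-6 without being called, and differed between the clones by -1.09 ± 0.05 (edgeR adjusted p = 8.29e-10). Smad3 lies on chromosome 9, whose 776 tested genes had a median of -0.39 in PKO-1, and Smad5 on chromosome 13. With the chromosome medians removed, neither Smad3 (-0.31) nor Smad5 (-0.23) passed the fold threshold in PKO-1.

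Smad2, Smad4 and Smad7 lie together on chromosome 18. Smad2, the second TGF-beta-branch Smad, held 5908, 6143 and 6377 in TM6, 8539, 8602 and 8827 in rho0, 7760.3, 7744 and 7433 in PKO-1 and 7954, 7885 and 8403 in PKO-6 normalized counts, and Smad4, the shared partner, 5227, 5464 and 5492 in TM6, 8058, 7156 and 7467 in rho0, 6697, 6598 and 6573 in PKO-1 and 7197, 7373 and 6665 in PKO-6. Smad7, the inhibitory Smad of the TGF-beta branch, held 3738, 3535 and 3778 in TM6, 3880.3, 3610.0 and 3861 in rho0, 4434, 4460.4 and 5092 in PKO-1 and 4823, 5093 and 4680.1 in PKO-6. All derived libraries exceeded TM6 for Smad2 and Smad4, yet none of these differences reached the fold threshold: Smad2 was 0.49, 0.32 and 0.40 in rho0, PKO-1 and PKO-6, Smad4 0.49, 0.30 and 0.39, and Smad7 0.04, 0.34 and 0.40. The median over the 381 tested genes of chromosome 18 was 0.42, 0.42 and 0.34 in the same order. With the chromosome medians removed, Smad2 and Smad4 were between -0.082 and 0.093 in the 3 lines. For these 2 genes the difference and the shift of the whole chromosome cannot be told apart. Smad7 was -0.36 in rho0 by the same removal (edgeR adjusted p = 0.00041), below the rest of its chromosome, and -0.037 and 0.065 in PKO-1 and PKO-6.

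**Figure D3:**
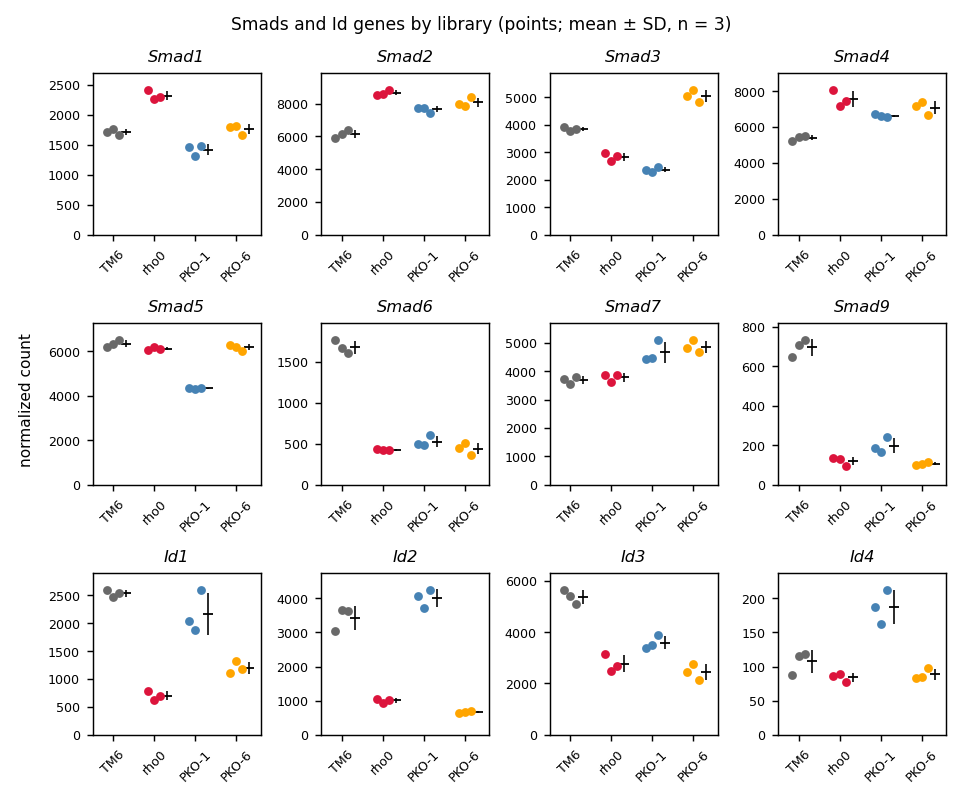
Normalized counts (vertical axes, linear from 0) of the 8 Smad and 4 Id genes in each of the 3 libraries of TM6, rho0, PKO-1 and PKO-6, with the mean and SD beside the points. Smad6 and Smad9 are highest in TM6, and each Id gene is higher in the PKO-1 libraries than in those of PKO-6.

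The Id genes encode dominant-negative helix-loop-helix proteins and separated the 2 knockout clones. Id1 held 2593, 2472 and 2536 in TM6, 778, 630.5 and 695 in rho0, 2043, 1877 and 2588 in PKO-1 and 1101, 1321 and 1175 in PKO-6 normalized counts. It fell in rho0, at -1.85 ± 0.11, and in PKO-6, at -1.08 ± 0.11, whereas PKO-1 overlapped with TM6 at -0.22 ± 0.11. Id2 held 3031, 3648 and 3635 in TM6, 1057, 926 and 1028 in rho0, 4076, 3721 and 4243 in PKO-1 and 647, 677 and 692 in PKO-6. The log2 fold change was -1.77 ± 0.08 in rho0 and -2.36 ± 0.08 in PKO-6, and the PKO-1 value of 0.22 ± 0.08 was not called. Id2 lies on chromosome 12, whose 491 tested genes had a median of 0.55 in rho0, 0.56 in PKO-1 and 0.53 in PKO-6, above TM6 in all 3 lines.

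Id3, the most abundant of the members per length in TM6 at 212 ± 9.43 TPM, held 5632, 5411 and 5097 in TM6, 3138, 2499 and 2667 in rho0, 3371, 3505 and 3874 in PKO-1 and 2462, 2741 and 2123 in PKO-6 normalized counts. It was lower in each derived line, at -0.96 ± 0.10, -0.59 ± 0.10 and -1.14 ± 0.10 in rho0, PKO-1 and PKO-6. Id4, the scarcest of the Id genes, held 88.2, 116 and 119 in TM6, 86.2, 88.6 and 77.0 in rho0, 187, 163 and 212 in PKO-1 and 82.7, 85.0 and 97.9 in PKO-6. PKO-1 was higher than TM6 by 0.80 ± 0.15, and rho0 and PKO-6 overlapped with TM6.

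Compared directly, PKO-1 exceeded PKO-6 for all 4 Id genes. The difference was 0.86 ± 0.11 for Id1, 2.58 ± 0.08 for Id2, 0.55 ± 0.10 for Id3 and 1.08 ± 0.15 for Id4 (edgeR adjusted p = 1.21e-05, 1.56e-11, 2.27e-04 and 2.67e-05). No libraries of the clones overlapped for these genes, but how many of all tested genes did not overlap was not counted. Over all tested genes, 29.1% differed between the clones by the same rule, 11.5% with PKO-1 above PKO-6 and 17.6% with PKO-1 below. The call for Id3 was lost when PKO-1 replicate 3 (0.50) or PKO-6 replicate 3 (0.46) was left out. Of the 40 tested members, 22 differed between the clones, 14 higher and 8 lower in PKO-1.

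The antagonist genes held both directions. Nog encodes noggin, which sequesters BMPs, and dropped from 144, 171 and 157 normalized counts in TM6 to 9.69, 8.86 and 12.3 in rho0, 5.95, 2.13 and 4.14 in PKO-1 and 4.91, 1.04 and 3.88 in PKO-6. The log2 fold change was -3.92 ± 0.26, -5.25 ± 0.30 and -5.48 ± 0.30, with counts too low in the derived lines to order them. Grem1 encodes gremlin, which also binds BMPs, and held 950.2, 1027 and 887 in TM6, 2194, 2059 and 2221 in rho0, 3264, 3236 and 3369 in PKO-1 and 4317, 4718 and 4595 in PKO-6. It rose by 1.18 ± 0.06 in rho0, 1.78 ± 0.06 in PKO-1 and 2.25 ± 0.06 in PKO-6, and none of the 4 lines overlapped with another. Grem1 was already the most abundant of these antagonists per length in TM6, at 19.9 ± 1.29 TPM against 2.74 ± 0.21 for Nog and 1.81 ± 0.28 for Fst.

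Fst encodes follistatin, which binds activins, and held 122, 153 and 167 in TM6, 16.5, 8.86 and 6.70 in rho0, 188, 169 and 201 in PKO-1 and 58.1, 95.3 and 101 in PKO-6. It fell in rho0, at -3.74 ± 0.29, and PKO-1 lay at 0.34 ± 0.21 and was not called. In PKO-6 the fall (-0.80 ± 0.22, edgeR adjusted p = 0.0048) was lost without TM6 replicate 2 (-0.77, adjusted p = 0.0153), TM6 replicate 3 (-0.70, 0.0244) or PKO-6 replicate 1 (-0.61, 0.0204).

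The widest rise among the members was that of Ltbp4, an LTBP of elastic fibers. It held 329, 300.0 and 251 in TM6, 14151, 11592 and 11994 in rho0, 4599.7, 4919 and 4729 in PKO-1 and 5216, 5534 and 4389 in PKO-6 normalized counts. All derived libraries held at least 4389, against at most 329 in TM6. The log2 fold change was 5.42 ± 0.12 in rho0, 4.01 ± 0.12 in PKO-1 and 4.10 ± 0.12 in PKO-6 (edgeR adjusted p = 4.49e-13, 5.19e-12 and 2.21e-12). The clones overlapped, with a difference of -0.09 (95% interval -0.31 to 0.14), and rho0 was higher than both.

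Ltbp2, an LTBP that does not bind latent TGF-beta, went down instead. It held 2193, 1955 and 1824 in TM6, 193, 157 and 169 in rho0, 496, 548 and 568 in PKO-1 and 108, 96.4 and 68.8 in PKO-6 normalized counts, and the 4 lines were apart. The log2 fold change was -3.52 ± 0.13, -1.89 ± 0.12 and -4.44 ± 0.14 in rho0, PKO-1 and PKO-6. Ltbp2 and Tgfb3 share chromosome 12 with Id2, so they fell on a chromosome whose median was above 0.

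Tgfbi, a matrix gene named for its induction by TGF-beta, held 1712, 1637 and 1498 in TM6, 163, 114 and 116 in rho0, 319, 265 and 356 in PKO-1 and 15.6, 25.9 and 24.2 in PKO-6. It fell in all 3 lines, at -3.62 ± 0.16 in rho0, -2.37 ± 0.14 in PKO-1 and -6.22 ± 0.19 in PKO-6, and differed between the clones by 3.85 ± 0.20, the widest gap between them among the members.

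Bmp1, a metalloproteinase that cleaves procollagens and LTBP1, held 6385, 5124 and 5806 in TM6, 2765, 2985 and 2951 in rho0, 3421, 3282 and 4106 in PKO-1 and 4174, 3761 and 4093 in PKO-6. It was lower, at -0.99 ± 0.09 in rho0, -0.68 ± 0.09 in PKO-1 and -0.53 ± 0.09 in PKO-6, and this last call was lost with the chromosome medians removed (-0.41) or without TM6 replicate 1 (-0.48). Ltbp3, an LTBP that carries latent TGF-beta, held 15716, 13161 and 13528 in TM6, 15662, 14484 and 14512 in rho0, 21358, 22564 and 24759 in PKO-1 and 17777, 18439 and 15559 in PKO-6 and was called in PKO-1 alone, at 0.70 ± 0.08.

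**Figure D4:**
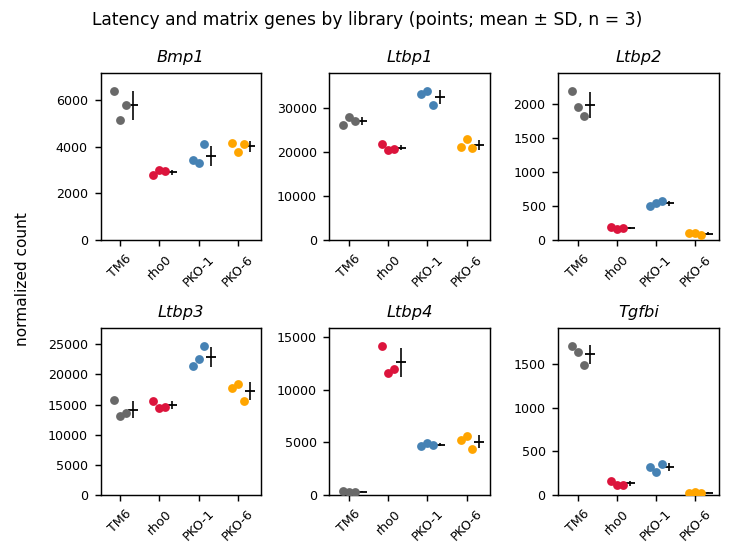
Normalized counts (vertical axes, linear from 0) of the 6 latency and matrix genes in each of the 3 libraries of TM6, rho0, PKO-1 and PKO-6, with the mean and SD beside the points. Ltbp4 lies between 251 and 329 in TM6 and between 4389 and 14151 elsewhere, while Ltbp2 and Tgfbi are highest in TM6.

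Ltbp1, an LTBP that binds all TGF-beta isoforms, was the member with the most normalized counts, 25986, 27755 and 26979.8 in TM6, 21630.1, 20416 and 20700.3 in rho0, 33004, 33729.7 and 30644 in PKO-1 and 21014, 22897 and 20876 in PKO-6, and was not called against TM6 in any line. With the median of chromosome 17 removed, it was called lower in rho0 (-0.55, edgeR adjusted p = 4.94e-06) and in PKO-6 (-0.53, 6.8e-06), and PKO-1 lay at 0.047. The 2 listed Ltbp1 transcripts start at different promoters. The longer form (NM_019919.3), from the start at the chr17:75005279-75005528 sequence above, took 21.6%, 17.6% and 17.9% of the gene's expected counts in TM6. It took 9.31%, 9.10% and 9.77% in rho0, 3.73%, 3.33% and 4.10% in PKO-1, and 7.70%, 7.12% and 6.22% in PKO-6. In normalized counts the longer form went from 5112 ± 442 in TM6 to 1964 ± 92.7 in rho0, 1202 ± 70.9 in PKO-1 and 1516 ± 188 in PKO-6. Its shorter form (NM_206958.2), listed 29 bases from the RefSeq start shown above, was 21795 ± 1287 in TM6 and 18951 ± 579, 31257 ± 1671 and 20079 ± 1031 in rho0, PKO-1 and PKO-6. Gene totals with log2 fold changes of -0.36 to 0.27 thus held a longer form at 0.235 to 0.384 of its TM6 level. The shares are descriptive, since the expected counts assign reads that fit both forms by a model.

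Ltbp4 has 3 listed transcripts, and both of its main forms were higher in rho0 and PKO-6. The shorter form (NM_001113549.1) took 70.3%, 76.9% and 58.9% of the gene's expected counts in TM6 and 87.7% to 97.5% in the 9 derived libraries. In normalized counts it went from 203 ± 48.1 in TM6 to 11812 ± 1378 in rho0, 4551 ± 85.1 in PKO-1 and 4459 ± 552 in PKO-6. Its longer form (NM_175641.2), whose start lies farther upstream, was 85.2 ± 13.9 in TM6, 602 ± 73.7 in rho0, 147 ± 66.6 in PKO-1 and 516 ± 56.7 in PKO-6. Libraries of PKO-1 held 72.3, 200.3 and 168 normalized counts of the longer form, which overlapped with 91.1, 69.3 and 95.1 in TM6. The third form (NM_001310678.1) took at most 3.29% in any library.

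**Figure D5:**
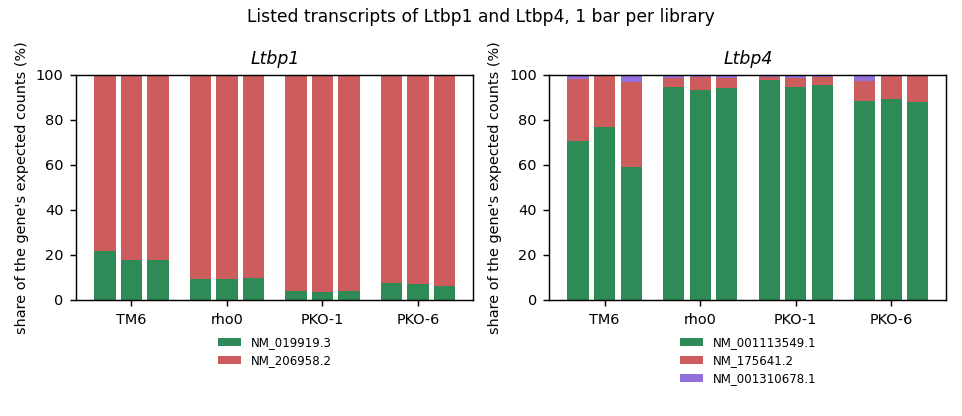
Share of each gene's expected counts (vertical axis, %) taken by the listed transcripts of Ltbp1 (left) and Ltbp4 (right), 1 bar per library in TM6, rho0, PKO-1 and PKO-6. The longer Ltbp1 form NM_019919.3 shrinks from 17.6% to 21.6% in TM6 to 3.33% to 9.77% elsewhere, and the Ltbp4 form NM_001113549.1 grows to 87.7% to 97.5%.

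Between the derived lines, 20 members differed between PKO-1 and rho0 (15 above and 5 below rho0), where 32.7% of all tested genes passed. Between PKO-6 and rho0, 18 did (11 above and 7 below rho0), where 21.5% were called. Fst had one of the widest gaps, 4.08 ± 0.29 for PKO-1 and 2.94 ± 0.30 for PKO-6 against rho0. Grem1 was higher in both clones than in rho0, by 0.61 ± 0.06 and 1.07 ± 0.06, and Ltbp4 was lower in both, at -1.41 ± 0.10 and -1.32 ± 0.10. Tgfbi was 1.25 ± 0.16 in PKO-1 and -2.60 ± 0.21 in PKO-6 against rho0, on opposite sides of it.

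With the clones as 1 group of 6 libraries, as the study compared them, 6 members rose and 14 fell against TM6, where 25.7% of all tested genes were called, 13.5% higher and 12.2% lower. Bmp2, Gdf5 and Nog, which were tested only through TM6, are among these falls. These 6 libraries are 3 cultures of each of 2 clones and were fitted as 6 replicates. The SE and p-values of the pooled fit therefore do not measure the spread between independent knockouts. The 3 Id genes other than Id3 were not called in that comparison, at -0.59 ± 0.24 for Id1, -0.55 ± 0.61 for Id2 and 0.36 ± 0.32 for Id4, in a fit where the gap between the clones counts as spread. Id3 was -0.84 ± 0.16 (edgeR adjusted p = 0.00135). The calls of Ltbp4 (4.06 ± 0.13), Grem1 (2.04 ± 0.15), Nog (-5.37 ± 0.33), Tgfb2 (-3.01 ± 0.21) and Smad6 (-1.80 ± 0.12) held when any 1 library was left out. Both clones stayed in each of these runs, so whether a pooled call rests on 1 clone was not tested. Tgfbi (-3.28 ± 0.82, adjusted p = 0.00629) lost its call without TM6 replicate 1 (adjusted p = 0.0194), 2 (0.0191) or 3 (0.0172), with the replicate block (0.0173), with the chromosome medians removed (0.0164) and with only the compared groups fitted (0.0165). DESeq2, which shrinks fold changes, put Tgfbi at -1.86 and called it. The call of Ltbp2 (-2.67 ± 0.59) was lost without TM6 replicate 1 (adjusted p = 0.0119) or 2 (0.0107). Ltbp3 (0.51 ± 0.13), whose groups overlapped, lost its call without any of 10 of the 12 libraries.

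Other genes of the pathway were read from 6 lists with 83 genes that are not members. Like the members, the lists were chosen with earlier results of these data known. Of the 60 that were tested, 33 passed in rho0 (10 up and 23 down), or 55.0% against the 42.1% of all genes, 36 in PKO-1 (15 and 21), 60.0% against 34.3%, and 38 in PKO-6 (16 and 22), 63.3% against 41.3%. The share was below that of all genes for Smad cofactors in rho0 and PKO-1 (33.3% in both), for other receptors in rho0 (28.6%) and for other ligands in rho0 and PKO-6 (37.5% in both). Of 13 target genes of TGF-beta, all tested, 4 rose and 7 fell in rho0, 3 rose and 6 fell in PKO-1, and 5 rose and 7 fell in PKO-6, with median log2 fold changes of -0.99, -0.32 and -0.52. The share called in this list was 84.6%, 69.2% and 92.3%, against 42.1%, 34.3% and 41.3% of all genes. Snai1, a transcription factor of mesenchymal change, went from 1248 ± 123 normalized counts in TM6 to 303 ± 36.9, 491 ± 35.4 and 364 ± 62.9 in rho0, PKO-1 and PKO-6. Pmepa1, a negative regulator of receptor Smads, fell from 3765 ± 124 to 866 ± 46.9, 745 ± 82.7 and 1852 ± 55.8, and Bhlhe40 from 4128 ± 127 to 2078 ± 113, 1686 ± 53.5 and 1015 ± 23.7. Cdkn1a, a cell cycle inhibitor that is also a p53 target, rose from 940.5 ± 68.8 to 4159 ± 337, 4431 ± 85.8 and 9331 ± 523.

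Of 10 BMP target genes, 9 were tested, and this list includes the members Smad6 and Smad7. None rose and 6 fell in rho0, 1 rose and 5 fell in PKO-1, and none rose and 6 fell in PKO-6, with medians of -1.25, -0.76 and -1.93. Smad6 is among the falls in each line. Of the 9 tested genes, 1 in rho0 and 2 in each clone averaged at most 3 normalized counts in that line or in TM6. The lowest log2 fold change was -9.06 in every line. A gene that passed the filter only through TM6 could only be called lower. Setting values of 3 or less at 3 left the medians at -1.25, -0.76 and -1.93. The share called was 66.7% in each line, against 42.1%, 34.3% and 41.3% of all tested genes. Atoh8, a helix-loop-helix factor, fell from 1051 ± 33.6 normalized counts in TM6 to 99.4 ± 9.32 in rho0, 619 ± 132 in PKO-1 and 55.5 ± 12.4 in PKO-6. Runx2, the master factor of bone, was -0.71 in rho0, 0.09 in PKO-1, where it was not called, and -0.83 in PKO-6. Bambi, a decoy receptor that is also in the receptor list, rose in PKO-1 by 0.62 and was 0.16 and 0.48 in rho0 and PKO-6, neither called. Bambi lies on chromosome 18.

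Of 18 other extracellular antagonists and modulators, 14 were tested, and 2 rose and 7 fell in rho0, 6 rose and 6 fell in PKO-1, and 4 rose and 6 fell in PKO-6. The share called was 64.3%, 85.7% and 71.4%, against 42.1%, 34.3% and 41.3% of all tested genes. In each comparison, 2 of the 14 averaged at most 3 normalized counts in the line or in TM6. Thbs1, thrombospondin 1, an activator of latent TGF-beta, fell from 57803 ± 2595 to 4688 ± 242, 22029 ± 295 and 8237 ± 764. Fbn1, the microfibril protein fibrillin 1 on which LTBPs are stored, fell from 10318 ± 200.5 to 1191 ± 68.5, 2348 ± 169 and 138 ± 5.22. Bmper, a BMP-binding protein, fell from 719.7 ± 46.8 to 43.6 ± 3.34, 26.3 ± 4.45 and 46.5 ± 11.2. Nbl1, a relative of gremlin, fell in rho0 (-1.06) and PKO-1 (-2.18) and was 0.27 in PKO-6, not called.

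Of 11 other receptors and co-receptors, 7 were tested, and none rose and 2 fell in rho0, 3 rose and 1 fell in PKO-1, and 2 rose and 1 fell in PKO-6. The share called was 28.6%, 57.1% and 42.9%, against 42.1%, 34.3% and 41.3% of all tested genes. Lrrc32, or GARP, which holds latent TGF-beta at the cell surface, went from 748 ± 26.9 to 4.17 ± 3.64, 230.1 ± 59.8 and 15.7 ± 3.12. Rgmb, a BMP co-receptor, rose in PKO-1 alone (0.84), and Eng, endoglin, was called lower in rho0 (-0.53). Of 16 Smad cofactors and regulators, 15 were tested, and 3 rose and 2 fell in rho0, 3 rose and 2 fell in PKO-1, and 5 rose and 3 fell in PKO-6. Their share called was 33.3%, 33.3% and 53.3%, to be read against the same shares of all genes. Tgif1, a corepressor of Smads, rose from 2175 ± 28.9 to 4155 ± 60.9, 4654 ± 132 and 7119 ± 192, whereas its relative Tgif2 fell from 746 ± 43.2 to 395 ± 28.3, 61.5 ± 7.62 and 231 ± 16.1. Zeb2, a Smad-interacting repressor, rose by 1.10, 1.05 and 0.79. Of 21 other ligands, 8 were tested, and 2 rose and 1 fell in rho0, 1 rose and 3 fell in PKO-1, and 2 rose and 1 fell in PKO-6, with medians of 0.81, -1.69 and 0.11. For these ligands the share called was 37.5%, 50% and 37.5%. Gdf15, a stress-induced member of the family, rose from 61.6 ± 9.53 to 1016 ± 13.5, 286 ± 22.0 and 627 ± 40.6. Gdf7, a ligand of the BMP branch that averaged 28.3 in TM6 and was picked after its values were seen, fell in all 3 lines, at -2.50, -2.68 and -3.64.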

How the data were processed

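Total RNA of 12 cultures (4 lines, 3 each, purified with TriZol or RNeasy; which sample had which is not given in the sources used here) was depleted of ribosomal RNA and sequenced as strand-specific libraries with technical duplicates merged. The authors aligned reads with Bowtie2 and deposited RSEM 1.2.25 expected counts (estimated, not whole) and TPM values, per gene and per transcript; 12.5% of the gene values had decimals. The expected counts were rounded here and genes filtered with edgeR's filterByExpr (minimum count 10), leaving 14026 of 18752 genes with a count. TMM scaling and edgeR 4.0.16 quasi-likelihood tests (R 4.3.3) were fitted to all 12 libraries as 4 lines, or as 3 groups where the clones were pooled. P-values were Benjamini-Hochberg adjusted over all tested genes. SE is the log2 fold change divided by the square root of F, and 95% intervals use it. All 43 members are described. Of each pathway list, the text names up to 4 called genes, those changed most against TM6 among genes averaging 100 or more normalized counts. TPM values were averaged. The test was checked on simulated counts. Members and lists were chosen with earlier results of these data known. The alternatives were DESeq2 size factors, DESeq2 1.42.0, no filter, a replicate block, only the compared groups, a log2 fold change over 1, chromosome medians removed and each library left out. Same-numbered libraries of TM6 and PKO-6 deviated from their line means together (r of 0.21 to 0.25 in 3 of 3 pairs), as those of no other 2 lines did in all pairs. Over all lines the median r was 0.12 for same-numbered and -0.047 for other pairs, and the highest was 0.25 and 0.49. The labels number the replicates and do not state a pairing. No 2 libraries of a line agreed within sampling noise (lowest chi-square per degree of freedom 4.38). Intervals cover the spread between cultures.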

Additional observations from a re-analysis of the deposited data

Results flagged for a closer look

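Tgfbr3 differed in direction between lines derived from the same parent. It rose in PKO-1 and fell in PKO-6 and rho0 against TM6. The direct difference was 1.74 on the log2 scale for PKO-1 against PKO-6 and 1.96 for PKO-1 against rho0, each called by edgeR with no overlap between libraries. No other member was called in opposite directions against TM6. With 3 libraries a line, no test was run for single libraries far from the others within a gene.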

How the results depend on the processing

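With chromosome medians removed, 10 calls were gained, among them Ltbp1 and Smad1. Other calls were lost by the same removal, among them Inhba, Smad3 and Smad5 in PKO-1 against TM6. None of the 155 member calls over the 7 comparisons reversed, 91 held in every alternative run and 64 were lost in at least 1. With a log2 fold change over 1 in place of 0.5, members called dropped to 15 for PKO-1 against TM6, 10 for PKO-1 against PKO-6, 10 for PKO-1 against rho0 and 6 for PKO-6 against rho0. Calls over all 14026 tested genes dropped too, in the same order from 4810 to 2274, 4087 to 1950, 4590 to 2202 and 3014 to 1510. Leaving out 1 library at a time gave 24 to 25 called for rho0 against TM6, 26 to 27 for PKO-1 against TM6, 24 to 26 for PKO-6 against TM6, 21 to 22 between the clones, 20 to 23 for PKO-1 against rho0, 15 to 18 for PKO-6 against rho0, and 17 to 20 with the clones pooled. With 3 groups in the fit, rho0 against TM6 had 20 called and lost Tgfb1, Id2, Tgfbr3 and Tgfbi, while calls over all genes went from 5902 to 4111. For PKO-6 against rho0, Nog and Gdf5 lost their calls without single libraries, PKO-6 replicate 2 among them (adjusted p = 0.0326 and 0.014). The replicate block gave 24, 26, 25, 22, 20, 17 and 18 called in the order of these comparisons. For TM6 with PKO-6, whose same-numbered libraries deviated together, a block with only these lines fitted, chosen after seeing the data, gave 26, adding Bmpr1a. Between the other lines, block results rest on a shared number only. Counts of other pathway genes, tried after seeing the data, stayed within 1.5 times of the main value, at 32 to 40 without single libraries. Depth limits Gdf5, Bmp2 and Nog in the derived lines, and Fst in rho0, where they held under 20 counts.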
